A study of Mus musculus with 19 samples.

Results

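Wnt signalling genes were followed in mouse skin carrying early basal cell carcinoma (BCC), a tumour of the epidermis and hair follicle that is driven by Hedgehog signalling. The set held every gene symbol of the Wnt, Frizzled (Fzd), Dickkopf (Dkk), secreted Frizzled-related (Sfrp) and R-spondin (Rspo) families followed by a digit, together with Wif1, Notum, Apcdd1, Axin2, Lef1, Tcf7, Nkd1, Nkd2, Lrp5, Lrp6, Znrf3 and Rnf43, provided that it had at least 10 counts over all libraries. This gave 53 of the 18521 genes in the expression table, and 49 of them were expressed highly enough to be tested. They are 19 Wnt ligands, 4 R-spondins, 12 receptors, 9 secreted antagonists, 7 feedback genes and 2 nuclear factors.

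RNA from whole skin was sequenced in 16 female Ptch1+/- K14-CreER2 p53fl/fl mice, giving 19 libraries. The skin with BCC treated by ablative fractional laser (AFL), which drills a grid of fine holes into the skin, came from 3 mice. Skin with BCC treated by vismodegib, an inhibitor of the Hedgehog signal transducer Smoothened, came from 4 mice, untreated BCC from 4 mice and healthy skin from 5 mice. All groups, the healthy one included, carry 1 inactive copy of the Hedgehog receptor gene Ptch1, floxed p53 alleles and a Cre recombinase under the keratin 14 promoter, so that p53 can be deleted in keratin 14 cells and not in dermal or immune cells. Tumours were induced in the laser, vismodegib and BCC groups with 3 tamoxifen injections of 300 µg and 4 Gy of x-rays, whereas healthy mice were not induced. The laser group had 1 treatment (density 5%, 40 mJ per microbeam), the vismodegib group had 8 treatments on a repeated daily schedule, by a route that the labels do not give, and skin was taken on day 4. Mice were 228 to 326 days old in the laser group, 268 to 326 in the vismodegib group, 278 to 320 in the BCC group and 128 to 137 in the healthy group, so age and induction cannot be told apart. Time since induction was 80 to 126 days in the laser group, 109 to 137 in the vismodegib group and 130 to 144 in the BCC group. Between laser-treated and BCC mice it did not overlap, so time and laser cannot be told apart there. No mouse used here had sham treatment or vehicle alone. Nothing in the labels ties mice to litters or days.

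A Wnt ligand is secreted and binds a Frizzled receptor together with Lrp5 or Lrp6, which protects β-catenin from breakdown and lets it switch on genes with Lef1 and Tcf7. R-spondins strengthen the signal by removing Znrf3 and Rnf43, ubiquitin ligases that clear Frizzled from the cell surface. Dickkopf, secreted Frizzled-related proteins and Wif1 block the signal outside the cell, and Axin2, Nkd1, Nkd2, Notum and Apcdd1 are targets that feed back on it. In skin the pathway is known for hair follicle formation and for hair growth, when follicles make new shafts (anagen). The RNA level of hair genes was therefore scored beside it, which is not an observed hair phase.

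Library totals lay between 27185921 and 33556611 counts. Expression is given in CPM, counts scaled to TMM-adjusted library sizes, with the libraries of a mouse summed, and log2 fold changes come with their standard error (SE). A gene "rose" or "fell" where edgeR's quasi-likelihood test, adjusted by Benjamini and Hochberg over 15760 genes, gave p under 0.05. Vismodegib mouse 9 stood apart, with a TMM factor of 0.591 against 0.906 to 1.183 in the other mice, and with 11.2% of its counts in its 10 most abundant genes against 3.63% to 7.59%. The growing-hair score, the mean log2 CPM of 15 hair shaft and root sheath genes outside the Wnt set, spanned -1.43 to 3.88 in laser-treated, 0.41 to 8.87 in vismodegib-treated, 1.49 to 8.86 in BCC and 4.6 to 9.86 in healthy mice. In the vismodegib and BCC groups mouse 6 and mouse 3 were far above the next highest scores, 1.52 and 3.27. No other mouse of these groups reached the healthy range, and no laser-treated mouse did. A model with the score therefore cannot tell score from group for laser-treated against healthy skin, whichever gene is tested. Because this is bulk tissue, fewer cells of a type and less RNA per cell cannot be told apart in any result below.

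Skin with BCC was first set against healthy skin, to see which Wnt genes differed once tumours had been induced. Of the 49 members tested 2 rose and 0 fell (4.08%), against 2.82% of all genes called in either direction, 2.66% higher and 0.159% lower. Both were ligands, Wnt7b and Wnt2b. At an unadjusted p under 0.05, 7 members were higher and 6 lower, against 8.91% and 5.28% of all genes. DESeq2 called 5 members, 1 of them lower, and 5.78% of all genes, and limma voom 2 members, 0 of them lower, and 2.79% of all genes. The BCC mice lay wholly above the healthy mice for 5 members and wholly below for 3, against 5.18% and 1.47% of all genes. The median log2 fold change was -0.29 over the members and 0 over all genes. Beside these, 2 of 5 Hedgehog output genes rose (summed 766 to 882 CPM in BCC, 132 to 352 CPM in healthy skin) and 0 of 15 growing-hair genes were called (105 to 16700 CPM in BCC, 1580 to 42300 CPM in healthy skin, list median log2 fold change -2.06). Their part in the Wnt results was not tested.

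Wnt7b, an epidermal ligand of the β-catenin branch, had 213, 160, 132 and 148 CPM in BCC mice, against 27.1, 29.5, 26.5, 56 and 69.9 CPM in healthy mice. Every BCC mouse was above every healthy mouse. Mean expression was 163 ± 35.3 CPM in BCC (SD, n = 4) and 41.8 ± 20 CPM in healthy skin (SD, n = 5). This was a 3.91-fold rise (log2 fold change 1.97, SE 0.35, edgeR adjusted p = 0.00396), and no alternative analysis ended the call.

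Wnt2b, a ligand known for its part in eye, lung and limb development, had 2.06, 2.53, 4.32 and 3.62 CPM in BCC mice, against 0.71, 0.758, 0.938, 1.07 and 1.19 CPM in healthy mice. Again the groups were separate, at levels resting on 429 counts over the BCC mice and 203 over the healthy mice. Wnt2b rose 3.34-fold (log2 fold change 1.74, SE 0.37, edgeR adjusted p = 0.0139). The call was lost by a small margin when healthy mouse 13 was left out (1.68, adjusted p = 0.0501).

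With the growing-hair score added to the model, Wnt7b stayed higher in BCC (1.74, SE 0.32, edgeR adjusted p = 0.00508), as did Wnt2b (1.33, SE 0.36, adjusted p = 0.0384). In that model Fzd7 was also called higher (0.85, SE 0.23, adjusted p = 0.039) and Sfrp4 lower (-1.93, SE 0.44, adjusted p = 0.015). Without the score Fzd7 had a log2 fold change of 0.76 (SE 0.21, adjusted p = 0.0687), although its values in BCC mice lay wholly above those in healthy mice. The ligands Wnt7a and Wnt6 were likewise separate without passing the test, Wnt7a at 1.19 (SE 0.41, adjusted p = 0.165) and Wnt6 at 0.87 (SE 0.34, adjusted p = 0.235).

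Vismodegib against BCC gave the longest list. Of 49 members 0 rose and 11 fell (22.4%), against 17% of all genes called in either direction, 8.03% higher and 9% lower. The 11 were the ligands Wnt2b, Wnt6, Wnt7a and Wnt7b, the receptors Fzd2 and Fzd7, the antagonists Dkk2, Dkk3 and Wif1, and the feedback genes Apcdd1 and Nkd1. At an unadjusted p under 0.05, 1 member was higher and 13 were lower, against 17.1% and 15.6% of all genes. DESeq2 called 13 members and 23.3% of all genes and limma voom 10 members and 15.4% of all genes, with 0 members higher by either tool. Treated and BCC mice did not overlap for 7 members, all lower after vismodegib, and 0 higher, against 8.74% and 7.63% of all genes. The median log2 fold change was -0.41 over the members and 0.05 over all genes. This comparison shares the BCC mice with the preceding one.

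Wnt7b had 56.5, 24, 35 and 45 CPM after vismodegib, against the 213, 160, 132 and 148 CPM in BCC given above. It fell 4.07-fold, to a mean of 40.1 ± 13.9 CPM after vismodegib (SD, n = 4) against 163 ± 35.3 CPM in BCC (SD, n = 4). On the log2 scale this was -2.02 (SE 0.38, edgeR adjusted p = 0.00264). Set against healthy skin it was -0.06 (SE 0.35, adjusted p = 0.92). The widest gap between treated and tumour skin among the called members was in Wnt2b, which had 0.546, 0.365, 0.212 and 0.802 CPM after vismodegib (83 counts in all), a log2 fold change of -2.65 (SE 0.41, adjusted p = 0.000968) against BCC.

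Wnt6, a ligand made in the epidermis, had 3.35, 8.55, 2.39 and 4.46 CPM after vismodegib, against 21.8, 24.3, 13.4 and 20.5 CPM in BCC. Its highest treated mouse was below its lowest BCC mouse. Against BCC the log2 fold change was -2.09 (SE 0.37, edgeR adjusted p = 0.00203). Against healthy skin, where Wnt6 had 10.3, 12.7, 11.5, 7.5 and 12.7 CPM, it also fell after vismodegib (-1.22, SE 0.35, adjusted p = 0.0347). That call was lost when any of vismodegib mice 1, 9 or 12 or of healthy mice 13, 14 or 16 was left out (-1.22 to -1, adjusted p = 0.0642 to 0.107), and with the hair score in the model (-0.98, adjusted p = 0.0949).

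Wnt7a, a close relative of Wnt7b, had 0.0683, 0.213, 0.159 and 0.33 CPM after vismodegib, against 1.51, 1.32, 1.21 and 0.981 CPM in BCC. The vismodegib values rest on 33 counts in all, against 172 in BCC. The groups were well apart, with a log2 fold change of -2.62 (SE 0.47, edgeR adjusted p = 0.00229). Healthy mice had 0.414, 0.35, 0.304, 0.955 and 0.708 CPM, overlapping the vismodegib-treated mice and below all BCC mice.

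The receptor Fzd7, known in skin and other tissues for stem cell functions, had 132, 126, 65.5 and 104 CPM after vismodegib, against 280, 250, 216 and 268 CPM in BCC. No treated mouse reached a BCC mouse. It fell by 1.25 on the log2 scale (SE 0.22, edgeR adjusted p = 0.00214). Healthy mice had 154, 150, 148, 160 and 140 CPM. The calls for Wnt2b, Wnt6, Wnt7a, Wnt7b and Fzd7 against BCC held under every alternative that was run.

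**Figure D1:**
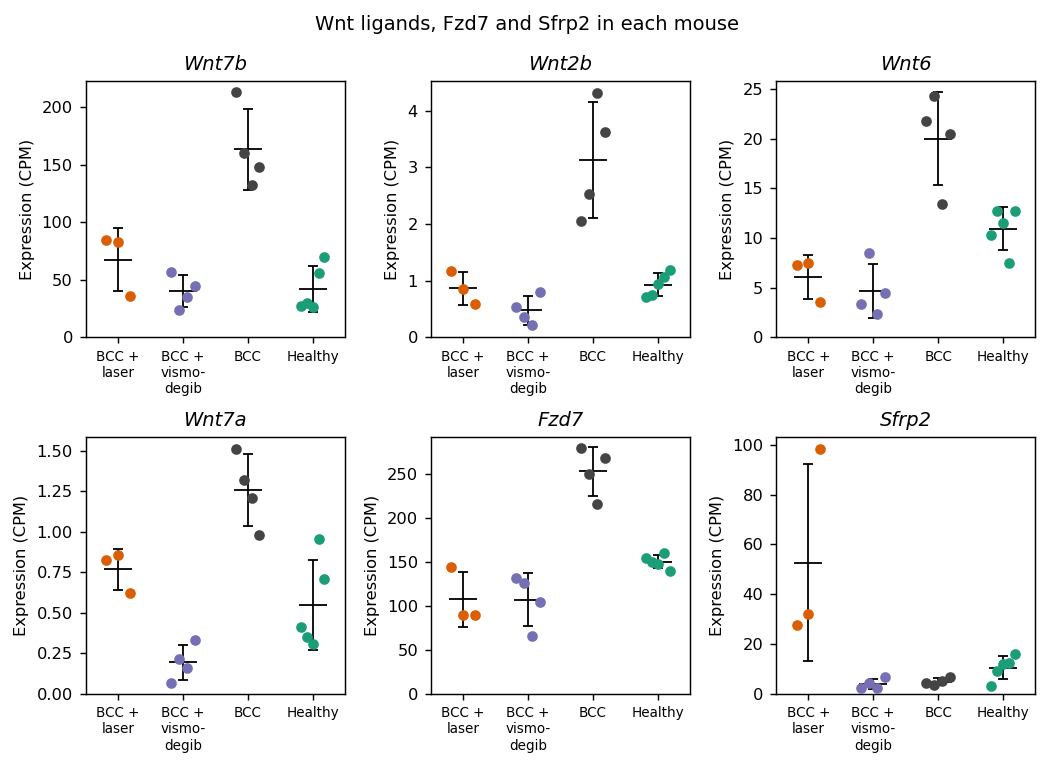
Expression in CPM (linear axis from 0) of Wnt7b, Wnt2b, Wnt6, Wnt7a, Fzd7 and Sfrp2 in laser-treated, vismodegib-treated, BCC and healthy mice. Each point is a mouse and the bars are the mean and SD of a group; for the first 5 genes the BCC mice sit above all vismodegib-treated mice, and for Sfrp2 the laser-treated mice, at 27.4 to 98.2 CPM, sit above all others.

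Fzd2, a second Frizzled receptor, had 24.3, 54.2, 23.5 and 30.4 CPM after vismodegib, against 81.3, 95.9, 34.7 and 74.9 CPM in BCC. BCC mouse 5 lay within the treated range. It fell by 1.11 on the log2 scale (SE 0.30, edgeR adjusted p = 0.0211), and the call was lost without vismodegib mouse 1 or 9 or BCC mouse 4 (-0.99 to -0.94, adjusted p = 0.0567 to 0.0682) and with days since induction in the model (-1.06, adjusted p = 0.0885).

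Among the antagonists, Dkk2, which can block or weakly activate the Lrp receptors, had 8.71, 2.77, 12.9 and 9.01 CPM after vismodegib, against 11.1, 27.9, 40.6 and 19.8 CPM in BCC. It fell by 1.58 on the log2 scale (SE 0.43, edgeR adjusted p = 0.0213), and BCC mouse 3, the BCC mouse with the highest hair score, overlapped the treated mice. Without BCC mouse 5 the value was -1.25 (adjusted p = 0.0661), and with days since induction in the model -1.54 (adjusted p = 0.0782). With the hair score in the model the log2 fold change was -1.83 (SE 0.29, adjusted p = 0.000788).

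Wif1, a secreted protein that binds Wnt ligands directly, had 14.6, 57.3, 25.3 and 31.6 CPM after vismodegib, against 133, 192, 83 and 42.6 CPM in BCC. The groups overlapped through BCC mouse 8. The log2 fold change was -1.81 (SE 0.58, edgeR adjusted p = 0.0429), and it was no longer called without any of 9 of the 16 mice in turn (-1.95 to -1.42, adjusted p = 0.051 to 0.121) or with days since induction in the model (-1.48, adjusted p = 0.115). It also missed the threshold with 1 library per mouse (-1.78, adjusted p = 0.0529) and by limma voom (-1.75, adjusted p = 0.0521). Dkk3, a divergent family member, had 54.8, 65.4, 38.5 and 62.3 CPM after vismodegib, against 83.2, 94.4, 61.6 and 97.5 CPM in BCC. BCC mouse 5 lay among the treated mice. It fell by 0.61 on the log2 scale (SE 0.19, adjusted p = 0.0413), a call that likewise ended without any of 9 mice in turn (-0.67 to -0.45, adjusted p = 0.0502 to 0.107), and with days since induction in the model (-0.67, adjusted p = 0.112).

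Gene groups outside the Wnt set moved in the same comparison. Of 5 Hedgehog output genes 4 fell after vismodegib, and their summed level was 82.5 to 324 CPM after vismodegib against 766 to 882 CPM in BCC, with a list median log2 fold change of -2.5. Of 8 epidermal keratinocyte markers 2 rose (summed 27700 to 53200 CPM after vismodegib, 11600 to 20600 CPM in BCC). Of 8 fibroblast markers 2 fell, the collagens Col1a1 and Col1a2, with a list median log2 fold change of -0.11 (summed 3380 to 10100 CPM, 6730 to 22900 CPM in BCC). All 5 neutrophil markers rose (summed 2420 to 49400 CPM, 24.8 to 134 CPM in BCC). So did 3 of 6 macrophage markers (446 to 1890 CPM, 249 to 519 CPM in BCC) and 2 of 5 sebaceous gland markers (1760 to 7830 CPM, 2380 to 3880 CPM in BCC). Of 5 genes of forming muscle 2 rose (0.761 to 19.1 CPM, 0.811 to 3.65 CPM in BCC), and 1 of 8 dermal papilla markers fell. No gene of these lists was at 0 in all mice. The part of these groups in the Wnt results was not tested.

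The 4 members of the vismodegib comparison whose calls held throughout and for which a promoter was at hand are shown here, because they fell together. The sequences are from RefSeq (GRCm38.p6) and run 5′ to 3′ over the 250 bases before the annotated start. In these windows no match was found to 1 form of the GLI site (ACCACCC) or to CTTTGAT and CTTTGAA, forms of the TCF/LEF site. Both strands were searched, and no letters are capitalised. Other forms of these sites were not searched, so absence of a site is not shown.
Wnt2b (chr3:104961710-104961959, minus strand): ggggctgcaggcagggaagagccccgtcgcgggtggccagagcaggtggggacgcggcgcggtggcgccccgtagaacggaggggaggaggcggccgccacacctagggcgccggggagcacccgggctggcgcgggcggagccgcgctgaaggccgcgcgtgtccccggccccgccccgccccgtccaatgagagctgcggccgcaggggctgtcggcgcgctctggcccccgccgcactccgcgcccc
Wnt6 (chr1:74771642-74771891, plus strand): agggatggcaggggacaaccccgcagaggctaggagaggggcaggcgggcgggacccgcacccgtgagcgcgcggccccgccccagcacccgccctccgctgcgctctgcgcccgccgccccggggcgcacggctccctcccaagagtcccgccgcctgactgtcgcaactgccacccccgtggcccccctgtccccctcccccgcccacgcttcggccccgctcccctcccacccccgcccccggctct
Wnt7a (chr6:91411354-91411603, minus strand): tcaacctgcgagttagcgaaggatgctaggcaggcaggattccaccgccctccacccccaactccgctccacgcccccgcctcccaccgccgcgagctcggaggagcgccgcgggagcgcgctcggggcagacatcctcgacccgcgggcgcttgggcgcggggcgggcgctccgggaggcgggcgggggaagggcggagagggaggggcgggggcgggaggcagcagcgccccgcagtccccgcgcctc
Fzd7 (chr1:59481897-59482146, plus strand): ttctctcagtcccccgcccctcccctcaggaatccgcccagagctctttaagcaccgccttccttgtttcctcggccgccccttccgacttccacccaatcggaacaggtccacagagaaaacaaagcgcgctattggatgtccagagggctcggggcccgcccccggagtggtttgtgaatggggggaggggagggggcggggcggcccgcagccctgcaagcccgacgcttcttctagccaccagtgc
Promoters were matched for 34 of the 53 members (42 promoters, since some genes have several starts). The GLI letters occurred in 2.38% of the member promoters and in 3.92% of 32851 promoters genome-wide, the TCF/LEF letters in 7.14% and 7.48%. Median GC content was 66.4% in member promoters and 52.4% in all promoters, with a median of 18.5 and 6 CpG pairs in the window.

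Laser against BCC asked what 1 AFL treatment changed. Of the 49 members 1 rose and 3 fell (8.16%), against 7.75% of all genes called in either direction, 6.1% higher and 1.65% lower. The antagonist Sfrp2 rose, and Fzd7, Wnt6 and Wnt2b fell. At an unadjusted p under 0.05, 1 member was higher and 15 were lower, against 12% and 8.64% of all genes. DESeq2 called 9 members and 12.5% of all genes. Laser-treated mice lay wholly above BCC mice for 1 member and wholly below for 11, against 11.5% and 7.34% of all genes. The median log2 fold change was -0.72 over the members and -0.04 over all genes. The BCC mice are again the same as in the other comparisons.

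Sfrp2, a secreted protein that binds Wnt ligands and is known from fibroblasts, had 27.4, 32.2 and 98.2 CPM after laser, against 4.08, 3.53, 5.1 and 6.54 CPM in BCC. Every laser-treated mouse was above every other mouse of the study, since vismodegib-treated mice had 2.32, 4.26, 2.34 and 6.49 CPM and healthy mice 3.16, 9.24, 11.8, 12.3 and 15.9 CPM. The rise was 10.9-fold against BCC (log2 fold change 3.45, SE 0.55, edgeR adjusted p = 0.000769), with a mean of 52.6 ± 39.5 CPM after laser (SD, n = 3) and 4.81 ± 1.32 CPM in BCC (SD, n = 4). It was 13.5-fold higher after laser than after vismodegib (3.76, SE 0.55, adjusted p = 0.000662). Both calls held under every alternative that was run. Of 8 fibroblast markers 3 rose after laser against vismodegib, the collagens Col1a1, Col1a2 and Col3a1, with a list median log2 fold change of 0.96. Their list had a summed level of 21400 to 22100 CPM after laser and 3380 to 10100 CPM after vismodegib. Against healthy skin the Sfrp2 rise was 5.01-fold (2.33, SE 0.49, adjusted p = 0.00526). Without laser mouse 11, the highest, its log2 fold change was 1.47 (adjusted p = 0.116). In that comparison 2 of the 8 fibroblast markers rose, Col3a1 and Pdgfra, with a summed level of the list of 3630 to 11900 CPM in healthy skin. The part of these markers in the Sfrp2 values was not tested.

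Markers of several cell types moved with Sfrp2 after laser. Of 6 macrophage markers all 6 rose against BCC (summed 2670 to 3450 CPM after laser, 249 to 519 CPM in BCC), as did 4 of 5 genes of forming muscle (89.4 to 530 CPM, 0.811 to 3.65 CPM in BCC) and 4 of 5 endothelial markers (204 to 445 CPM, 84.1 to 144 CPM in BCC). Of 5 neutrophil markers 3 rose (93.5 to 2350 CPM after laser, 24.8 to 134 CPM in BCC). Of the fibroblast markers 0 were called in either direction against BCC, and their summed level was 21400 to 22100 CPM after laser and 6730 to 22900 CPM in BCC. Of 5 Hedgehog output genes 2 fell (177 to 436 CPM after laser, 766 to 882 CPM in BCC). No gene of these lists was at 0 in all mice, and their part in the Wnt results was not tested.

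The 3 members that fell after laser were among those that fell after vismodegib, with the same BCC mice in both comparisons. Fzd7 had 144, 89.6 and 89.7 CPM after laser, against 280, 250, 216 and 268 CPM in BCC. Its log2 fold change was -1.24 (SE 0.25, edgeR adjusted p = 0.00453). Wnt6 had 7.26, 7.53 and 3.58 CPM after laser, with a log2 fold change of -1.71 (SE 0.41, adjusted p = 0.0148), and Wnt2b had 1.17, 0.854 and 0.589 CPM, with -1.85 (SE 0.44, adjusted p = 0.0154). For all 3 genes each laser-treated mouse was below each BCC mouse.

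These 3 calls were less firm than that for Sfrp2. With days since induction in the model, Fzd7 had -1.42 (adjusted p = 0.0704), Wnt6 -2 (adjusted p = 0.134) and Wnt2b -2.15 (adjusted p = 0.123). All 3 falls were larger than without days. The days did not overlap between laser-treated and BCC mice, so that fit cannot tell time from laser. Leaving out laser mouse 11 ended the calls for Wnt6 (-1.47, adjusted p = 0.109) and Wnt2b (-1.66, adjusted p = 0.104), and leaving out laser mouse 7 that for Wnt2b (-1.84, adjusted p = 0.0566). Wnt7b did not pass after laser, at 84.4, 82.5 and 36 CPM against the BCC values given above (-1.27, SE 0.41, edgeR adjusted p = 0.0718). With the hair score in the model it did (-1.70, SE 0.41, edgeR adjusted p = 0.0166). Dkk2 likewise did not pass after laser against BCC (-1.03, SE 0.46, edgeR adjusted p = 0.219) and did with the hair score (-1.45, SE 0.33, adjusted p = 0.0103).

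Both treatments were also set directly against each other. After laser 3 members were higher than after vismodegib and 0 lower (6.12%), against 9.15% of all genes called, 6.69% higher and 2.46% lower. At an unadjusted p under 0.05, 5 members were higher and 5 lower, against 14.3% and 11.6% of all genes. DESeq2 called 7 members, 2 of them lower, with 15.9% of all genes, and limma voom 3 members, 0 of them lower, with 9.75% of all genes. The treated groups did not overlap for 5 members higher after laser and 3 lower, against 13% and 9.24% of all genes. The 3 members called were Sfrp2, Wnt7a and Wnt2. Wnt7a had 0.825, 0.854 and 0.62 CPM after laser, against 0.0683, 0.213, 0.159 and 0.33 CPM after vismodegib, with no overlap (1.90, SE 0.49, edgeR adjusted p = 0.0245). Its call ended without laser mouse 2 or 7 or vismodegib mouse 1 (1.64 to 1.88, adjusted p = 0.0618 to 0.0717), with 1 library per mouse (1.78, adjusted p = 0.0516) and with days since induction in the model (1.85, adjusted p = 0.0862).

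Wnt2, a ligand best known from lung development and from mesenchyme, had 4.66, 7.04 and 3.1 CPM after laser, against 1.09, 2.86, 0.637 and 0.912 CPM after vismodegib. The lowest laser-treated mouse was just above the highest vismodegib-treated mouse. The log2 fold change was 1.83 (SE 0.55, edgeR adjusted p = 0.0465), and the call was lost without any of 11 mice in turn (1.49 to 2.07, adjusted p = 0.0511 to 0.147). It was also lost with the hair score (1.86, adjusted p = 0.0631) or days since induction in the model (1.57, adjusted p = 0.206), with 1 library per mouse (1.66, adjusted p = 0.102) and with no filter on low counts (1.81, adjusted p = 0.0524). Against healthy mice, with 2.37, 7.35, 4.5, 6.6 and 10.5 CPM, Wnt2 fell after vismodegib (-2.18, SE 0.51, adjusted p = 0.0137), and no alternative ended that call. BCC mice had 3.39, 2.2, 5.94 and 3.05 CPM. For Fzd7 the laser and vismodegib groups differed by 0.01 (SE 0.24, adjusted p = 0.984), for Wnt6 by 0.38 (SE 0.39, adjusted p = 0.559) and for Wnt2b by 0.80 (SE 0.43, adjusted p = 0.247). Wnt9a, not called without the hair score, was higher after laser than after vismodegib with it (1.54, SE 0.39, edgeR adjusted p = 0.0199).

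**Figure D2:**
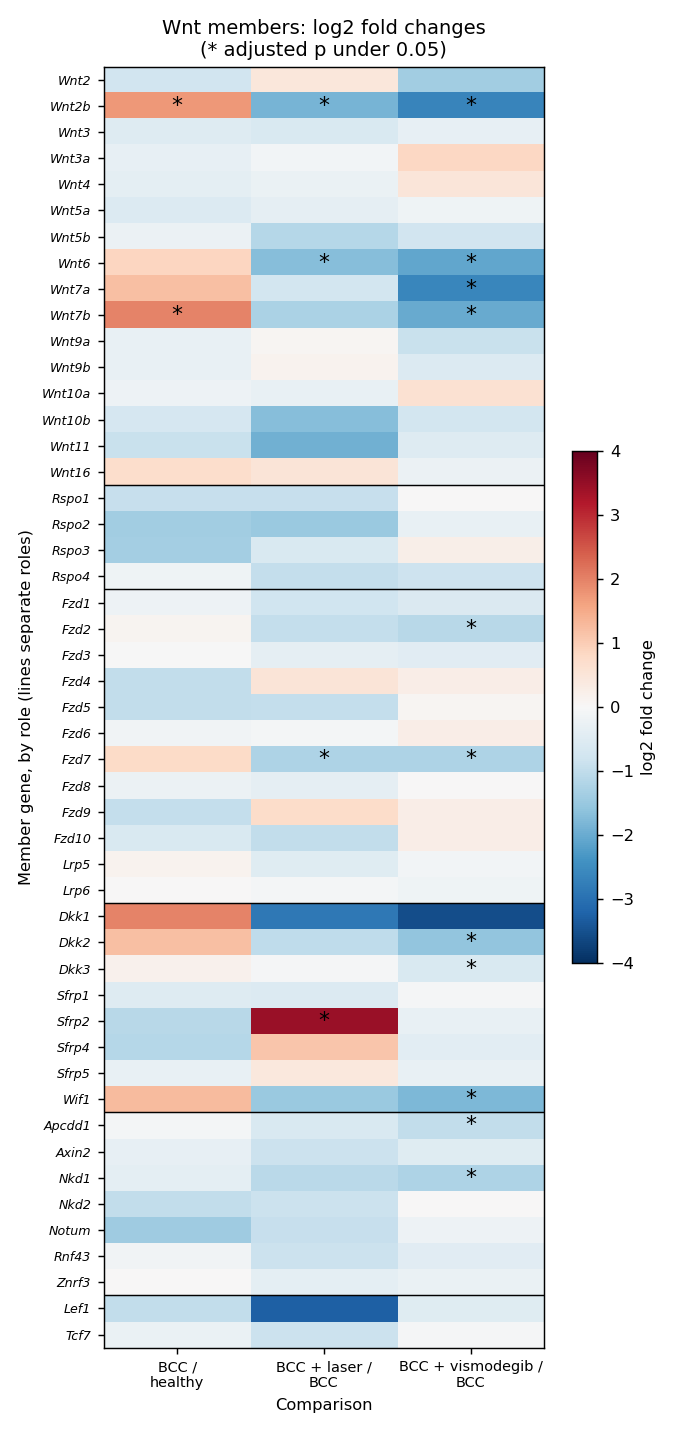
Log2 fold changes of the 49 tested members (rows, by role, with lines between ligands, R-spondins, receptors, antagonists, feedback genes and nuclear factors) in BCC against healthy, laser against BCC and vismodegib against BCC skin (columns); red is higher and blue lower in the first named group, and a star marks an edgeR adjusted p under 0.05. Stars number 2, 4 and 11, and Wnt2b carries one in all 3 columns.

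The feedback genes report on the output of the pathway. None of the 7 was called in BCC against healthy skin or after laser against BCC, and Apcdd1 and Nkd1 fell after vismodegib against BCC. Of all genes 2.82%, 7.75% and 17% were called in these comparisons. The median log2 fold change of the 7 was -0.32, -0.87 and -0.44 in the same order. For laser against vismodegib 0 were called. Axin2, the most widely used readout of β-catenin activity, had 24.2, 35.2 and 15.1 CPM after laser, 39, 40.7, 12 and 36.8 CPM after vismodegib, 60.1, 21.5, 35.6 and 62 CPM in BCC and 62.7, 56, 48.5, 57.7 and 54.3 CPM in healthy skin. Treated mice lay below every healthy mouse, and BCC mice were spread over both ranges. No comparison of Axin2 was called. Its log2 fold change was -0.32 (SE 0.35, edgeR adjusted p = 0.736) in BCC against healthy, -0.85 (SE 0.41, adjusted p = 0.254) for laser against BCC, -0.48 (SE 0.37, adjusted p = 0.399) for vismodegib against BCC and -1.17 (SE 0.40, adjusted p = 0.0823) for laser against healthy skin.

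Apcdd1, a membrane protein that inhibits Wnt signalling and whose human gene is mutated in an inherited hair loss, had 113, 157, 75.8 and 136 CPM after vismodegib, against 304, 184, 187 and 265 CPM in BCC. The groups did not overlap. It fell by 0.97 on the log2 scale against BCC (SE 0.28, edgeR adjusted p = 0.0279) and by 1.06 against healthy skin (SE 0.27, adjusted p = 0.021), where it had 216, 229, 237, 296 and 276 CPM. The call against BCC was lost without vismodegib mouse 1 or 9 or BCC mouse 3 or 8 (-0.95 to -0.79, adjusted p = 0.0582 to 0.0834), and that against healthy skin without vismodegib mouse 9 or healthy mouse 15 (-0.99 to -0.89, adjusted p = 0.0508 to 0.068) and with the hair score in the model (-0.98, adjusted p = 0.0538). After laser it had 161, 211 and 89 CPM (-0.62 against BCC, SE 0.30, adjusted p = 0.264).

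Nkd1, which binds Dishevelled and dampens the signal, had 8.37, 8.29 and 4.06 CPM after laser, 4.58, 10.6, 2.55 and 7.28 CPM after vismodegib, 21.7, 8.96, 11.8 and 15.9 CPM in BCC and 18.7, 21, 21.4, 15.4 and 19.3 CPM in healthy skin. All treated mice were below all healthy mice. Against healthy skin Nkd1 fell after vismodegib by 1.61 on the log2 scale (SE 0.37, edgeR adjusted p = 0.0133), under every alternative that was run, and after laser by 1.47 (SE 0.41, adjusted p = 0.0339). Against BCC it fell after vismodegib by 1.22 (SE 0.38, adjusted p = 0.0405), and that call ended without any of 9 mice in turn (-1.30 to -0.95, adjusted p = 0.0502 to 0.103), with 1 library per mouse (-1.19, adjusted p = 0.0523) and with days since induction in the model (-1.35, adjusted p = 0.0902). The laser call against healthy skin ended without any of 7 mice in turn (-1.64 to -1.24, adjusted p = 0.0506 to 0.195) with the hair score in the model (-0.81, adjusted p = 0.423) and with scaling by library size alone (-1.53, adjusted p = 0.0564).

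Notum, an enzyme that inactivates Wnt ligands by removing their lipid, had 1.17, 3.32 and 1.01 CPM after laser, 2.36, 4.93, 1.86 and 3.02 CPM after vismodegib, 6.6, 2.15, 1.34 and 3.87 CPM in BCC and 6.62, 6.97, 7.07, 18 and 8.37 CPM in healthy skin. Every induced mouse was below every healthy mouse, by a narrow margin for BCC mouse 3. The fall was called for laser against healthy skin (-2.36, SE 0.60, edgeR adjusted p = 0.0181) and not for vismodegib (-1.62, SE 0.51, adjusted p = 0.0509) or BCC (-1.43, SE 0.51, adjusted p = 0.184). The laser call was lost without laser mouse 2 or 11 (-2.13 and -2.09, adjusted p = 0.103 and 0.121) and with the hair score in the model (-1.76, adjusted p = 0.19).

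**Figure D3:**
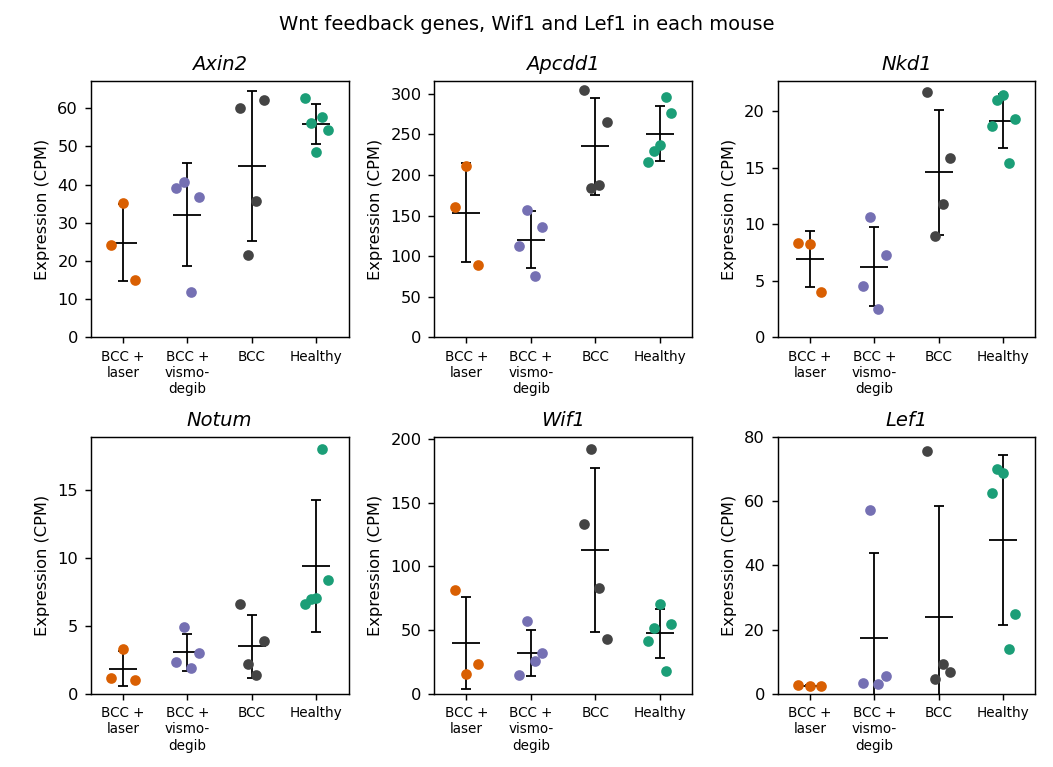
Expression in CPM (linear axis from 0) of Axin2, Apcdd1, Nkd1, Notum, Wif1 and Lef1 in laser-treated, vismodegib-treated, BCC and healthy mice. Points are mice and bars the mean and SD of a group, cut at 0 where the SD exceeds the mean; Lef1 is at 2.4 to 2.73 CPM in laser-treated mice and at 57.3 and 75.7 CPM in a single vismodegib-treated and a single BCC mouse.

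Against healthy skin, 1 member rose and 7 fell after laser (16.3%). Of all genes 9.24% were called there, 7.95% higher and 1.29% lower. After vismodegib 0 rose and 6 fell (12.2%), with 11.6% of all genes called, 7.57% higher and 4.07% lower. Laser-treated mice lay wholly above healthy mice for 2 members and wholly below for 19, against 14.7% and 11% of all genes, and vismodegib-treated mice for 0 and 10, against 9.33% and 6.78%. These comparisons share the healthy mice, which were younger and not induced. Laser-treated mice also lay wholly below healthy mice in the hair score. At an unadjusted p under 0.05, 2 members were higher and 21 lower after laser, against 15% and 10.2% of all genes, and 0 were higher and 20 lower after vismodegib, against 18.4% and 13.2%. DESeq2 called 18 members for laser, with 15.7% of all genes, and 14 for vismodegib, 0 of them higher, with 19.9% of all genes. For vismodegib limma voom called 10 members, 0 of them higher, with 10.5% of all genes. Beside Sfrp2, Nkd1 and Notum, the laser calls were the R-spondins Rspo1 and Rspo3, the nuclear factors Tcf7 and Lef1, and Wnt5b. Beside Nkd1, Wnt2, Wnt6 and Apcdd1, the vismodegib calls were Fzd2 and Sfrp4.

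Markers of several cell types also differed between treated and healthy skin. After laser all 6 macrophage markers rose (summed 2670 to 3450 CPM after laser, 306 to 889 CPM in healthy skin), as did all 5 neutrophil markers (93.5 to 2350 CPM, 7.47 to 22 CPM in healthy skin), 4 of 5 genes of forming muscle (89.4 to 530 CPM, 2.22 to 8.73 CPM in healthy skin) and 2 of 5 endothelial markers (204 to 445 CPM, 86.9 to 196 CPM in healthy skin). Of 15 growing-hair genes 1 fell (31.9 to 616 CPM after laser, 1580 to 42300 CPM in healthy skin). After vismodegib all 5 neutrophil markers rose (2420 to 49400 CPM after vismodegib), as did 2 of 6 macrophage markers (446 to 1890 CPM) and 1 of 5 genes of forming muscle (0.761 to 19.1 CPM). Of 8 fibroblast markers 1 fell, the collagen Col1a1 (list 3380 to 10100 CPM). Of 8 keratinocyte markers 2 rose and 1 fell in each comparison (13900 to 30100 CPM after laser, 27700 to 53200 CPM after vismodegib, 10400 to 17500 CPM in healthy skin). The part of these groups in the Wnt results was not tested.

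Rspo1 had 3.2, 4.3 and 2.19 CPM after laser, 5.74, 6.42, 3.66 and 9.24 CPM after vismodegib, 7.59, 3.85, 4.38 and 8.77 CPM in BCC and 9.61, 10.3, 12.4, 10.7 and 15.4 CPM in healthy skin. All induced mice lay below all healthy mice. The fall after laser was 1.86 on the log2 scale (SE 0.37, edgeR adjusted p = 0.0037) and no alternative ended it, while BCC against healthy had -0.92 (SE 0.32, adjusted p = 0.173). Rspo3 had 1.01, 1.01 and 1.63 CPM after laser, 0.751, 2.59, 3.24 and 2.31 CPM after vismodegib, 2.17, 1.12, 2.39 and 1.8 CPM in BCC and 5.44, 3.85, 6.95, 3.65 and 4.16 CPM in healthy skin. Here too healthy mice were the highest. The laser call for Rspo3 (-1.97, SE 0.44, adjusted p = 0.00849) was lost without laser mouse 2 (-1.86, adjusted p = 0.0544) and with the hair score in the model (-1.56, adjusted p = 0.094).

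Tcf7, a partner of β-catenin on DNA, had 14.9, 15.5 and 9.51 CPM after laser, 24.5, 26.5, 20.7 and 22.9 CPM after vismodegib, 35.6, 16.9, 22.9 and 21.9 CPM in BCC and 32.9, 34, 33.6, 20.3 and 24.7 CPM in healthy skin. Laser-treated mice were the lowest of all. The log2 fold change against healthy skin was -1.13 (SE 0.27, edgeR adjusted p = 0.0121), and it was not called without laser mouse 11 (-0.97, adjusted p = 0.0914) or with the hair score in the model (-0.77, adjusted p = 0.231). Against BCC the laser value was -0.87 (SE 0.27, edgeR adjusted p = 0.0663), and 3 of 27 alternatives called it.

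Wnt5b, a ligand of the branch that works without β-catenin, had 4.28, 4.18 and 3.57 CPM after laser, 2.53, 8.7, 3.88 and 5.49 CPM after vismodegib, 12.3, 8.35, 4.2 and 10.1 CPM in BCC and 9.08, 12.2, 12.3, 6.57 and 11 CPM in healthy skin. Laser-treated mice were below all healthy mice. The laser call (-1.35, SE 0.40, edgeR adjusted p = 0.0465) ended without any of 10 mice in turn (-1.41 to -1.28, adjusted p = 0.0578 to 0.193) with the hair score in the model (-0.61, adjusted p = 0.539) and with scaling by library size alone (-1.41, adjusted p = 0.0609). Fzd2 was at 40.3, 32.5 and 38 CPM after laser and at 56.2, 68.4, 76.8, 55.1 and 73.5 CPM in healthy skin, and its vismodegib call against healthy skin (a fall by 1 on the log2 scale, SE 0.29, adjusted p = 0.0366) ended without any of 7 mice in turn (-1.05 to -0.86, adjusted p = 0.055 to 0.122) and with the hair score in the model (-0.68, adjusted p = 0.138).

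Sfrp4, a secreted antagonist, had 37.8, 43.3 and 25.5 CPM after laser, 16.1, 6.18, 16.5 and 10.6 CPM after vismodegib, 7.04, 4.82, 28.7 and 24.8 CPM in BCC and 17, 34.4, 34.5, 52.7 and 43 CPM in healthy skin. Vismodegib-treated mice were all below healthy mice, by a narrow margin at 16.5 and 17 CPM. The log2 fold change was -1.56 (SE 0.49, edgeR adjusted p = 0.0498), and the call ended without any of 10 mice in turn (-1.74 to -1.34, adjusted p = 0.0525 to 0.11) and with 1 library per mouse (-1.41, adjusted p = 0.0735). With the hair score in the model it was -2.52 (SE 0.48, adjusted p = 0.00392). That model also called Wnt2b (-1.40, edgeR adjusted p = 0.0368), Dkk2 (-1.48, adjusted p = 0.0145) and Sfrp5 (-1.74, adjusted p = 0.0204) lower after vismodegib than in healthy skin. These genes were not called there without the score.

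A second pattern ran across the groups with the growing-hair score. Each member was tested for a slope on the growing-hair score within groups, in a model that held group and score. Of 49 members 12 had a positive and 3 a negative slope, 15 in all, against 12.8% of all genes called in either direction, 5.46% with a positive and 7.38% with a negative slope. Without vismodegib mouse 6 the count was 7 of 49 members, with 5.11% of all genes called in that fit. Without BCC mouse 3 it was 12, with 6.85% of all genes called.

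The largest slope was that of Lef1, a partner of β-catenin that marks the growing hair matrix, at 0.418 log2 units per unit of score (SE 0.057, edgeR adjusted p = 0.00015). Lef1 had 2.73, 2.41 and 2.4 CPM after laser, 3.24, 57.3, 3.13 and 5.61 CPM after vismodegib, 75.7, 4.59, 9.11 and 6.73 CPM in BCC and 62.6, 70, 68.7, 14 and 24.8 CPM in healthy skin. High values lay in vismodegib mouse 6, BCC mouse 3 and healthy mice 10, 13 and 14, which had hair scores of 8.86 to 9.86. Against healthy skin Lef1 was called lower after laser (-4.25, SE 1.28, adjusted p = 0.04999). With the hair score in the model, a score without overlap between these groups, the value was -1.01 (adjusted p = 0.488). That call also ended without any of 10 mice in turn, laser mice 2, 7 and 11 among them (adjusted p = 0.0518 to 0.21), with scaling by library size alone (-4.31, adjusted p = 0.0742), with no filter on low counts (-4.28, adjusted p = 0.0639) and when genes had to reach 1 CPM in at least 3 mice (-4.29, adjusted p = 0.055).

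Wnt11 had the next largest slope, 0.375 (SE 0.044, edgeR adjusted p = 2.47e-05). It is a ligand mostly of the branch without β-catenin, and it had 5.68, 6.16 and 5.48 CPM after laser, 4.03, 48.7, 2.87 and 4.75 CPM after vismodegib, 57.6, 11.3, 7.4 and 11 CPM in BCC and 62, 59.7, 42.9, 20 and 18.3 CPM in healthy skin. Fzd5, a Frizzled receptor, followed the score most tightly of the members by its adjusted p (slope 0.35, SE 0.03, adjusted p = 6.66e-07). It had 16.2, 13 and 25 CPM after laser, 17, 105, 9.88 and 16 CPM after vismodegib, 89.3, 18.1, 13.1 and 19.6 CPM in BCC and 104, 103, 74.3, 34.4 and 26.2 CPM in healthy skin. In both genes the same 5 mice were highest.

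Nkd2, the relative of Nkd1, had 23.5, 30.1 and 20.3 CPM after laser, 17.6, 131, 11.6 and 20.7 CPM after vismodegib, 21.7 to 109 CPM in BCC and 133, 107, 98.4, 58.6 and 48.3 CPM in healthy skin, with a slope of 0.294 (SE 0.042, edgeR adjusted p = 0.000242). In BCC mouse 3 was the one at 109 CPM, with the others at 21.7, 24.3 and 25.6 CPM. Rspo2, an R-spondin of the dermal papilla, had a slope of 0.336 (SE 0.071, adjusted p = 0.00609), which was lost without vismodegib mouse 6 (0.306, adjusted p = 0.0766). Rspo2 had 0.159, 0.152 and 0.341 CPM after laser, 0.0342, 1.52, 0.212 and 0.299 CPM after vismodegib, 1.71, 0.411, 0.28 and 0.163 CPM in BCC and 1.27, 2.19, 3.37, 0.347 and 1.26 CPM in healthy skin. It had 1.26 CPM or more in vismodegib mouse 6, BCC mouse 3 and healthy mice 10, 13, 14 and 16. Healthy mouse 16 had the lowest hair score of its group, 4.6, and healthy mouse 15, at 0.347 CPM, had a score of 7.16.

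Wnt5a, the best known ligand of the branch without β-catenin, had 42, 21 and 47.5 CPM after laser, 18, 96.5, 24.7 and 28.6 CPM after vismodegib, 70.8, 55.3, 33.2 and 31.3 CPM in BCC and 104, 74.2, 92.6, 33.1 and 46.6 CPM in healthy skin (slope 0.214, SE 0.035, edgeR adjusted p = 0.000845). Wnt10b, a ligand of the growing follicle, had 2.76, 4.3 and 2.17 CPM after laser, 2.66, 15.6, 0.956 and 4.31 CPM after vismodegib, 19.8, 3.03, 8.24 and 8.56 CPM in BCC and 16.4, 18.7, 17.8, 9.7 and 15.7 CPM in healthy skin. Its slope was 0.199 (SE 0.060, adjusted p = 0.0404), and it was not called without any of 8 mice in turn (0.11 to 0.208, adjusted p = 0.0511 to 0.423), with the lowest value without vismodegib mouse 6. The remaining positive slopes were those of Sfrp1 (0.208), Rspo4 (0.272), Fzd1 (0.12), Fzd6 (0.107) and Wnt9a (0.141). Of these Sfrp1 kept its call in every alternative that was run, and the others lost theirs without vismodegib mouse 6 (edgeR adjusted p = 0.0599 to 0.596). Rspo4 also lost its call without BCC mouse 3, and Wnt9a without any of 8 mice in turn, mouse 6 among them. Over all 25 alternatives the call was lost in 11 for Wnt10b, 11 for Wnt9a, 3 for Rspo4, 2 for Fzd6 and 1 for Fzd1.

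Negative slopes were found for 3 antagonists, Sfrp5 (-0.22, SE 0.052, edgeR adjusted p = 0.0128), Dkk2 (-0.186, SE 0.041, adjusted p = 0.00869) and Sfrp4 (-0.181, SE 0.054, adjusted p = 0.0388). The slopes of Dkk2 and Sfrp4 were lost without vismodegib mouse 6 (-0.151 and -0.205, adjusted p = 0.11 and 0.123), that of Dkk2 also without BCC mouse 3 (-0.172, adjusted p = 0.053), and that of Sfrp4 without any of 10 mice in turn (-0.205 to -0.157). Over all 25 alternatives the Sfrp4 slope lost its call in 14. Axin2 had a slope of 0.033 (SE 0.048, edgeR adjusted p = 0.674) and Wnt7b one of -0.095 (SE 0.043, adjusted p = 0.153). Wnt16, a ligand also known from bone, had 4.06, 3.93 and 5.85 CPM after laser, 3.01, 1.46, 2.28 and 4.32 CPM after vismodegib, 1.77, 3.15, 4.66 and 3.41 CPM in BCC and 2.1, 0.962, 1.24, 3.27 and 2.49 CPM in healthy skin, and its slope of -0.116 was not called (SE 0.052, adjusted p = 0.149).

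**Figure D4:**
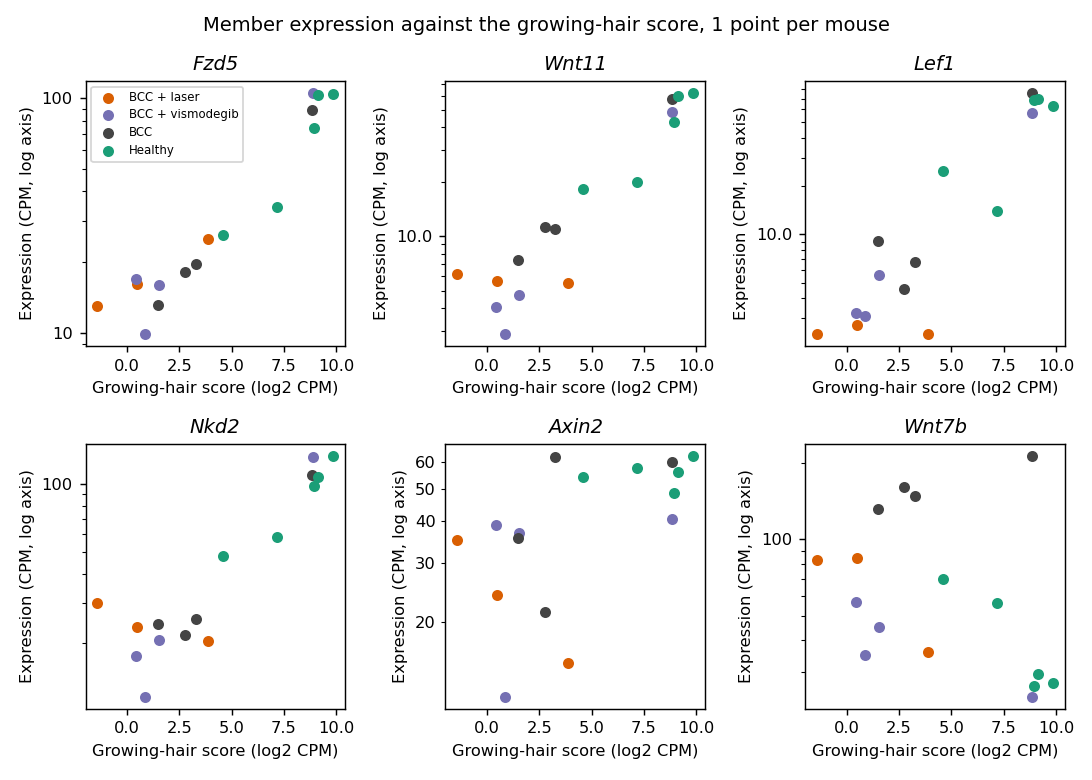
Expression in CPM (log axis) of Fzd5, Wnt11, Lef1, Nkd2, Axin2 and Wnt7b against the growing-hair score (mean log2 CPM of 15 hair genes), with 1 point per mouse coloured by group. Fzd5, Wnt11, Lef1 and Nkd2 are highest in the mice with scores of 8.86 or more, whatever their group, while the slopes of Axin2 and Wnt7b, 0.033 and -0.095, were not called.

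Among the 42 member promoters the letters searched were found in 4. Those of Wnt11 and of an alternative start of Lef1 are shown because both genes followed the growing-hair score. The capitals mark the TCF/LEF letters in Wnt11, on the minus strand 51 to 45 bases before the start, and the GLI letters in Lef1, on the minus strand 57 to 51 bases before that start. The first annotated start of Lef1 had none.
Wnt11 (chr7:98834862-98835111, plus strand): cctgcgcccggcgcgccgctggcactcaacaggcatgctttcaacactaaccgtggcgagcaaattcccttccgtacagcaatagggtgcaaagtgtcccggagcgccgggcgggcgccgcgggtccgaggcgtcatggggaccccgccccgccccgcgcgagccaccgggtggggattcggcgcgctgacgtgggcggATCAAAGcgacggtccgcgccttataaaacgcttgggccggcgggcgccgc
Lef1, alternative start (chr3:131112541-131112790, plus strand): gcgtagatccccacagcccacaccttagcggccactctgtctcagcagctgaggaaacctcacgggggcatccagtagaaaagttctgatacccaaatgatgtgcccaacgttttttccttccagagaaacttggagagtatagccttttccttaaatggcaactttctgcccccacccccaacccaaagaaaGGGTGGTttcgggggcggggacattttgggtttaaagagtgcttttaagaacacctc
The others were Wnt5b and Dkk1, which held TCF/LEF letters. A match describes these letters and not binding.

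Members outside the tests were Wnt1, Wnt8a, Wnt8b and Dkk4. Dkk4, an antagonist of the follicle placode and matrix, had 0, 2, 7 and 13 counts over the laser, vismodegib, BCC and healthy mice. Its counts lay in vismodegib mouse 6, BCC mouse 3 and healthy mice 10, 13 and 14, at 0.0609, 0.203, 0.0591, 0.262 and 0.0552 CPM, and it was at 0 in the others. Wnt1 had 7, 8, 16 and 39 counts, Wnt8a 2, 7, 11 and 87, and Wnt8b 2, 1, 3 and 7 over the same groups. Dkk1, a tested antagonist with few counts, was at 0.14 to 0.317 CPM after laser, 0.0342 to 0.212 CPM after vismodegib and 0.377 to 4.32 CPM in BCC, and at 0 in 3 of 5 healthy mice. It was not called after vismodegib against BCC (-3.55, SE 1.30, edgeR adjusted p = 0.0704). With the hair score in the model it was (-3.75, SE 1.19, edgeR adjusted p = 0.0363).

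Of the neighbouring members in RefSeq, 4 pairs lie side by side in the genome, Wnt6 and Wnt10a, Wnt3a and Wnt9a, Wnt9b and Wnt3, and Wnt10b and Wnt1. Wnt10a, the neighbour of Wnt6, was not called after vismodegib against BCC, at 0.62 (SE 0.40, edgeR adjusted p = 0.295). The annotated spans of Wnt9b and Wnt3 overlap, so the counts of that pair are uncertain. Whether counting used strand was not stated, so reads of overlapping antisense genes may be included.

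Other parts of the pathway were read from 5 lists outside the Wnt set, of which the receptor and target lists both hold Lgr5. In BCC against healthy skin 1 of 18 genes for secretion and receptors rose, Lgr6, a receptor for R-spondins and a marker of follicle stem cells. It had 99.7, 68.3, 85.3 and 79.5 CPM in BCC mice, against 13.2, 11.3, 12, 13.1 and 15.5 CPM in healthy mice (log2 fold change 2.68, SE 0.31, edgeR adjusted p = 0.000194). No healthy mouse came near a BCC mouse. Of 17 tested targets 1 rose, the adhesion receptor Cd44 (1.13, SE 0.26, edgeR adjusted p = 0.0252). Its call ended without any of 5 mice in turn (0.85 to 1.15, adjusted p = 0.0628 to 0.0944) and with the hair score in the model (0.98, adjusted p = 0.0754). Over all 26 alternatives it was lost in 7. None of 16 genes of the destruction complex and relay, 11 nuclear factors or 10 genes of planar polarity was called. Of all genes 2.66% rose and 0.159% fell in this comparison.

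After vismodegib 7 of the 18 secretion and receptor genes fell against BCC, as did 5 of 11 nuclear factors and 5 of 17 targets. Of 16 destruction complex genes 2 fell and 1 rose, and 1 of 10 planar polarity genes fell. Of all genes 9% fell and 8.03% rose in this comparison. Lgr6 had 24.6, 17.7, 7.33 and 19.7 CPM after vismodegib (-2.26, SE 0.33, edgeR adjusted p = 0.000626 against BCC), below all BCC mice. Sostdc1, a secreted antagonist of Wnt and BMP signals, had 30.8, 47.1, 23.3 and 52.7 CPM after vismodegib, against 127, 98.7, 92.7 and 90.5 CPM in BCC (-1.41, SE 0.27, adjusted p = 0.00328). Lgr5, a target and R-spondin receptor of follicle stem cells that counts in both lists, had 29.3, 74.5, 20.9 and 29.6 CPM after vismodegib, against 70.4, 143, 226 and 129 CPM in BCC (-1.88, SE 0.43, adjusted p = 0.00832). Both groups were apart for Sostdc1, and for Lgr5 they overlapped in BCC mouse 3, and the Lgr5 call was lost with days since induction in the model (-1.53, adjusted p = 0.0555). Tcf7l2, a DNA-binding partner of β-catenin, fell as well, to 13.3, 24.4, 12.5 and 17.3 CPM after vismodegib, against 32.2, 50.5, 36 and 38.7 CPM in BCC (-1.22, SE 0.22, adjusted p = 0.00229).

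After laser 3 of the 18 secretion and receptor genes fell against BCC and 1 rose. Of 17 targets 2 fell, 1 destruction complex gene fell, and 0 nuclear factors and 0 planar polarity genes were called. Of all genes 1.65% fell and 6.1% rose in this comparison. The receptor list gene that rose was Cthrc1, a secreted protein of injured tissue that can bind Wnt and Frizzled. It had 115, 64.8 and 91.3 CPM after laser, against 7.3, 13.2, 7.93 and 3.38 CPM in BCC (log2 fold change 3.5, SE 0.55, edgeR adjusted p = 7e-04), and like Sfrp2 it was higher in each laser-treated mouse than in any other mouse. Lgr6 had 47.7, 21.9 and 21 CPM after laser (-1.46, SE 0.36, adjusted p = 0.017 against BCC), a call lost without laser mouse 7 or 11 (-1.28 and -1.30, adjusted p = 0.0828 and 0.107) and with days since induction in the model (-1.77, adjusted p = 0.097). The follicle regulator Sox9 had 75.2, 43 and 59.8 CPM after laser, against 173, 148, 149 and 162 CPM in BCC (-1.41, SE 0.36, adjusted p = 0.0248), and its call ended without laser mouse 7 or 11 (-1.23 and -1.46, adjusted p = 0.106 and 0.102) without BCC mouse 3 or 8 (-1.37 and -1.43, adjusted p = 0.0502 and 0.0509), and with days since induction in the model (-1.25, adjusted p = 0.187).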

How the data were processed

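RNA was measured in whole skin, 19 libraries from 16 mice. The authors deposited expected counts per gene, which per the submitters' processing notes were made with Bowtie2 and RSEM on GRCm39; versions, annotation and filters were not stated there. Of the values, 3.42% were not whole, and all were rounded. The libraries of mice 11, 12 and 16, which had a pair each, were summed. Within each such pair the counts differed beyond sampling noise, and the libraries of mouse 16 carry different ages in the labels and have hair scores of 5.47 and -0.11.

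Genes were filtered with filterByExpr in edgeR 4.0.16 (R 4.3.3), leaving 15760. All 16 mice were fitted together by quasi-likelihood (TMM, robust dispersions), with group as the sole term, so p-values measure the spread between these mice. CPM were computed from TMM-scaled library sizes. The growing-hair score used a prior count of 0.5. Medians over genes of 263 to 569 counts per library set the depth. Scripts were tested on simulated data. The members and lists were chosen with earlier results of these data known. Mouse values are given for members called in a comparison and for a fixed set of pathway genes, and of other lists at most the 3 called genes with the smallest p. Replicate numbers of the labels did not pair the mice. Promoters came from RefSeq (GRCm38.p6). Alternatives were DESeq2 1.42.0, limma voom 3.58.1, other scalings and filters, other replicate units, covariates and leaving out each mouse.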

Additional observations from a re-analysis of the deposited data

Results flagged for a closer look

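In 81 groups of 4 or 5 mice, 11 values stood apart from the rest of their group by more than a gap test allows. The test flags about 1 in 20 groups by chance only where values are normal and groups independent. Here the same mice recur for every gene and CPM need not be normal, so the count of flags cannot be set against that rate. In the vismodegib group mouse 6 stood apart by its growing-hair score of 8.87, with the others at 0.405 to 1.52, and by 57.3 CPM of Lef1 (others 3.13 to 5.61), 131 CPM of Nkd2 (others 11.6 to 20.7), 96.5 CPM of Wnt5a (others 18 to 28.6) and 0.0609 CPM of Dkk4 (others 0). BCC mouse 3, with a hair score of 8.86, stood apart by 75.7 CPM of Lef1 (others 4.59 to 9.11), 109 CPM of Nkd2 (others 21.7 to 25.6) and 0.203 CPM of Dkk4 (others 0). Healthy mouse 13 had 0.262 CPM of Dkk4 (others 0 to 0.0591). These Dkk4 values rest on few counts. For mouse 6 and mouse 3 the Dkk4 flag was certain, since all other mice of the group were at 0. Vismodegib mouse 9 was low in Axin2, at 12 CPM with the others at 36.8 to 40.7, and it is the mouse with the low TMM factor of 0.591. Healthy mouse 15 was high in Notum, at 18 CPM with the others at 6.62 to 8.37. No cause of these values was tested.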

How the results depend on the processing

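Under the alternatives no log2 fold change or slope of a named gene that was called changed its sign. Some alternatives added calls among the fixed set of pathway genes. For laser against BCC these were Tcf7 in 3 of 27 alternatives, Lef1 in 2, Nkd1 in 1 and Wif1 in 1, all lower. For vismodegib against BCC Wnt10b was called lower in 1 of 27. The number of members called moved by over 1.5 times in these cases, and their cause was not tested. With DESeq2 it was 5 for BCC against healthy, 9 for laser against BCC, 18 for laser against healthy, 14 for vismodegib against healthy and 7 for laser against vismodegib. With all 19 libraries as replicates, which counts 3 mice more than once, it was 9 for laser against BCC, 20 for laser against healthy, 15 for vismodegib against healthy and 7 for laser against vismodegib. Limma voom called 10 for vismodegib against healthy, library size alone 5 for laser against healthy, and 1 library per mouse 1 for laser against vismodegib. With the hair score as a covariate the count was 4 for BCC against healthy and 2 for laser against healthy, and with days since induction 7 for vismodegib against BCC. Scaling by library size alone moved the median of all genes to -0.30 for vismodegib against BCC, -0.18 for laser against BCC, -0.25 for vismodegib against healthy and 0.16 for laser against vismodegib.

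Leaving out each mouse in turn gave 1 to 4 members called for BCC against healthy, 2 to 6 for laser against BCC, 6 to 17 for vismodegib against BCC, 2 to 13 for laser against healthy, 2 to 17 for vismodegib against healthy, 1 to 4 for laser against vismodegib and 7 to 18 slopes. For vismodegib against BCC the count was 6 without vismodegib mouse 1 or 9 and 17 without mouse 6. With the replicate number as a block it was 2, 5, 10, 10, 5 and 3 in the 6 comparisons (BCC against healthy, laser and vismodegib against BCC, laser and vismodegib against healthy, laser against vismodegib) and 10 slopes. Under the block Wif1 lost its call for vismodegib against BCC (-1.60, edgeR adjusted p = 0.0945). Mice with the same number did not deviate together, with 5 of 21 pairs above a correlation of 0.1 (range -0.64 to 0.69), and 4 of 16 mice correlated best with their own number. Under the block the calls against healthy skin were also lost for Wnt5b after laser (-1.34, adjusted p = 0.0779) and for Fzd2 (-1.02, adjusted p = 0.0633) and Sfrp4 (-1.44, adjusted p = 0.101) after vismodegib. Low counts limit the precision of members such as Wnt7a, Wnt2b, Dkk1 and Dkk4.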
